A study of Mus musculus with 16 samples.

Results

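The 7 genes described here encode transcription factors listed for the supporting cells of the fetal ovary, the cells that become granulosa cells: Foxl2, Runx1, Irx3, Irx5, Msx1, Msx2 and Nr0b1. Whole gonads were profiled, so these data do not place the genes in that cell type. They were taken by name from the probe annotation of the array, which gives them 15 of the 45101 probe sets. Of these, 10 passed the filter on low values, at least 1 for each gene, and the 7 genes are among 12332 tested. The 5 that did not pass (1 each of Foxl2, Msx1 and Msx2 and 2 of Runx1) lay between 2.98 and 12.7 on all arrays. Gonads of mouse embryos were profiled on Affymetrix Mouse430_2 arrays in 8 groups of 2 arrays, made up of wild type and Wnt-4 knock-out, female (ovary) and male (testis), at the embryonic stages E12.5 and E14.5, named by days of gestation. Embryos were picked by hand on morphological criteria, the gonads were frozen until the genotype was known by PCR, and 8 ug of total RNA was labelled per sample. The labels call the arrays biological replicates but do not give the mouse strain, the knock-out allele, or how many embryos went into a sample, and the p-values reflect only the spread among these samples. The knock-out is not described as restricted to a cell type.

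In the mouse gonad a common supporting-cell precursor becomes a Sertoli cell in the testis or a pre-granulosa cell in the ovary. WNT4, a secreted signal made by the somatic cells of the ovary, acts with RSPO1 through beta-catenin on the ovarian side, and FOXL2, a forkhead factor, maintains granulosa cell identity. RUNX1 is a runt-domain factor of the early supporting cells, IRX3 and IRX5 are Iroquois homeobox proteins encoded side by side, MSX1 and MSX2 are homeobox proteins that respond to BMP signals, and NR0B1 (DAX1) is an orphan nuclear receptor that represses transcription driven by NR5A1.

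The 250 bases before the annotated start are shown for 4 members that differ in how they varied: Msx1 and Irx3, which had the largest decreases in the E12.5 knock-out ovary, Foxl2, which stayed nearest to the wild-type ovary among the sex-different members at that stage, and Nr0b1, the member whose mean was lower at E14.5 than at E12.5 in all 4 kinds of gonad. Sequences are from RefSeq on build GRCm38.p6, written 5′ to 3′ on the strand of the gene, at chr5:37824586-37824835 (minus strand) for Msx1, chr8:91801655-91801904 (minus strand) for Irx3, chr9:98955357-98955606 (plus strand) for Foxl2 and chrX:86191525-86191774 (plus strand) for Nr0b1. Capitals mark matches to the 4 short motifs named after the sequences.
Msx1: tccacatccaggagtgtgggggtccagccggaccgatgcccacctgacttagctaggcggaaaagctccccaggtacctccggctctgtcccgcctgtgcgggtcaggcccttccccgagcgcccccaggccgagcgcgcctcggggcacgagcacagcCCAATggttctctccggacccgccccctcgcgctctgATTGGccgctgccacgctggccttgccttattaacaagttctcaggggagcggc
Irx3: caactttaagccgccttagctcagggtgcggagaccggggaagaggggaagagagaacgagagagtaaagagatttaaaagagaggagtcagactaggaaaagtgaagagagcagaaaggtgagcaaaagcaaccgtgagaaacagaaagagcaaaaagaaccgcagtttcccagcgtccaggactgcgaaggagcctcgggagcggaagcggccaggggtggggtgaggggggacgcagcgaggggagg
Foxl2: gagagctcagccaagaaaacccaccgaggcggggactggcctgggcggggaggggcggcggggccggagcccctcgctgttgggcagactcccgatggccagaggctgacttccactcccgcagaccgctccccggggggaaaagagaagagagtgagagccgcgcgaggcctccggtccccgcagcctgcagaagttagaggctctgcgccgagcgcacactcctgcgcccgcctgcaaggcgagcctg
Nr0b1: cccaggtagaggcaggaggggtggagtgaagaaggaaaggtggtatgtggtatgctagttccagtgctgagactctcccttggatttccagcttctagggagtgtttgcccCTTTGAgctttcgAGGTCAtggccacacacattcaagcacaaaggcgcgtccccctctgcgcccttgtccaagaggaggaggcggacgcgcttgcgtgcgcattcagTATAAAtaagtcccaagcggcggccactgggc
The table of promoters matched 6 of the 7 members with 7 windows, with 2 for Runx1. The windows of Foxl2, Msx1 and the downstream start of Runx1 were 70.8%, 68% and 67.6% G+C, against a median of 52.4% over all 32851 promoters, while that of Nr0b1 was 57.2%. A first set of motifs, searched on both strands, gave no match in any of the 7 windows. For WNT signalling this was the TCF/LEF motif, CTTTG followed by 2 bases that are each A or T, which 14.8% of all promoters hold. For the nuclear receptor NR5A1 it was AAGGTCA, in 4.08% of them. The RUNX motif TGTGGTT is in 4.40%, the forkhead motif GTAAACA in 3.17% and the GATA motif AGATAA in 9.99%. A second set was chosen after the sequences and that result had been seen: TATAAA (12.4% of all promoters), CCAAT (33.9%), CTTTGA (13.8%, which overlaps the first motif) and AGGTCA (14.0%, the shorter form of the NR5A motif). Of this set, Nr0b1 holds TATAAA 32 to 27 bases before the start, CTTTGA 139 to 134 bases and AGGTCA 126 to 121 bases before it. Msx1 holds CCAAT 91 to 87 bases before the start and, on the opposite strand, 54 to 50 bases before it. Msx2 and both Runx1 windows hold CCAAT too, and Foxl2 and Irx3 hold none of the 4. A match is a run of letters and no measure of binding.

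Some arrays stood apart from their labels. Transcripts specific to the opposite sex (Xist in testes, Eif2s3y, Kdm5d and Uty in ovaries) reached 16.5% to 22.8% of their level in that sex on 5 arrays: wild-type ovary E12.5 replicate 1, knock-out ovary E12.5 replicate 2, wild-type ovary E14.5 replicate 2, wild-type testis E14.5 replicate 2 and knock-out testis E14.5 replicate 2. This opposite-sex signal was 8.40% on wild-type ovary E12.5 replicate 2 and below 0.30% on the other 10. The summed intensity of 12 Sertoli cell genes was 3094 on wild-type ovary E14.5 replicate 2 against 543 on replicate 1. A ratio of signal at the 3′ end to that at the 5′ end of 2 control transcripts, beta-actin and Gapdh, which reads RNA quality, was 2.27 on knock-out ovary E12.5 replicate 1, 1.76 on wild-type ovary E12.5 replicate 2 and on knock-out testis E12.5 replicate 1, and 1.06 to 1.36 elsewhere. The 2 wild-type testis E12.5 arrays were nearly the same, with an SD of the log2 difference of 0.142 against 0.335 to 0.593 in the other groups. Wnt4 itself had intensities of 844 and 1822 in wild-type ovaries and of 839 and 520 in knock-out ovaries at E12.5, a log2 change of -0.90 that was not called (limma, adjusted p = 0.530). At the later stage its wild-type arrays read 1138 and 1150.5 and its knock-out arrays 351 and 302, a change of -1.80 (adjusted p = 0.0453) that was not called with any of these 4 arrays left out (0.108 to 0.325). Its signal was present on every knock-out array. Whether its probe set lies in the deleted part is not stated, so it checks the genotype in part only.

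Levels are deposited intensities of the probe set with the highest mean for each gene, and cannot be compared between genes. Differences, and the folds taken from them, are in log2(intensity + 4), which understates changes of dim genes. They come from a limma fit over all 16 arrays with p-values adjusted over the 12332 genes, a gene being called at an adjusted p below 0.05. A 95% confidence interval (CI) is given where a difference was not called. Where every array of a group lay below its array median, the level used for the filter, the fold is also given as a bound, with those arrays raised to their medians. Irx5 passed the filter through wild-type ovary arrays alone, so its higher level there is partly set by the filter, and counts are also given without it. Msx2 passed through wild-type arrays alone, of both sexes, so its lower level on knock-out arrays is likewise partly set by the filter. It was not called between knock-out and wild type of the same sex in this fit. Because whole gonads were used, fewer supporting cells and less RNA per cell cannot be told apart.

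**Figure D1:**
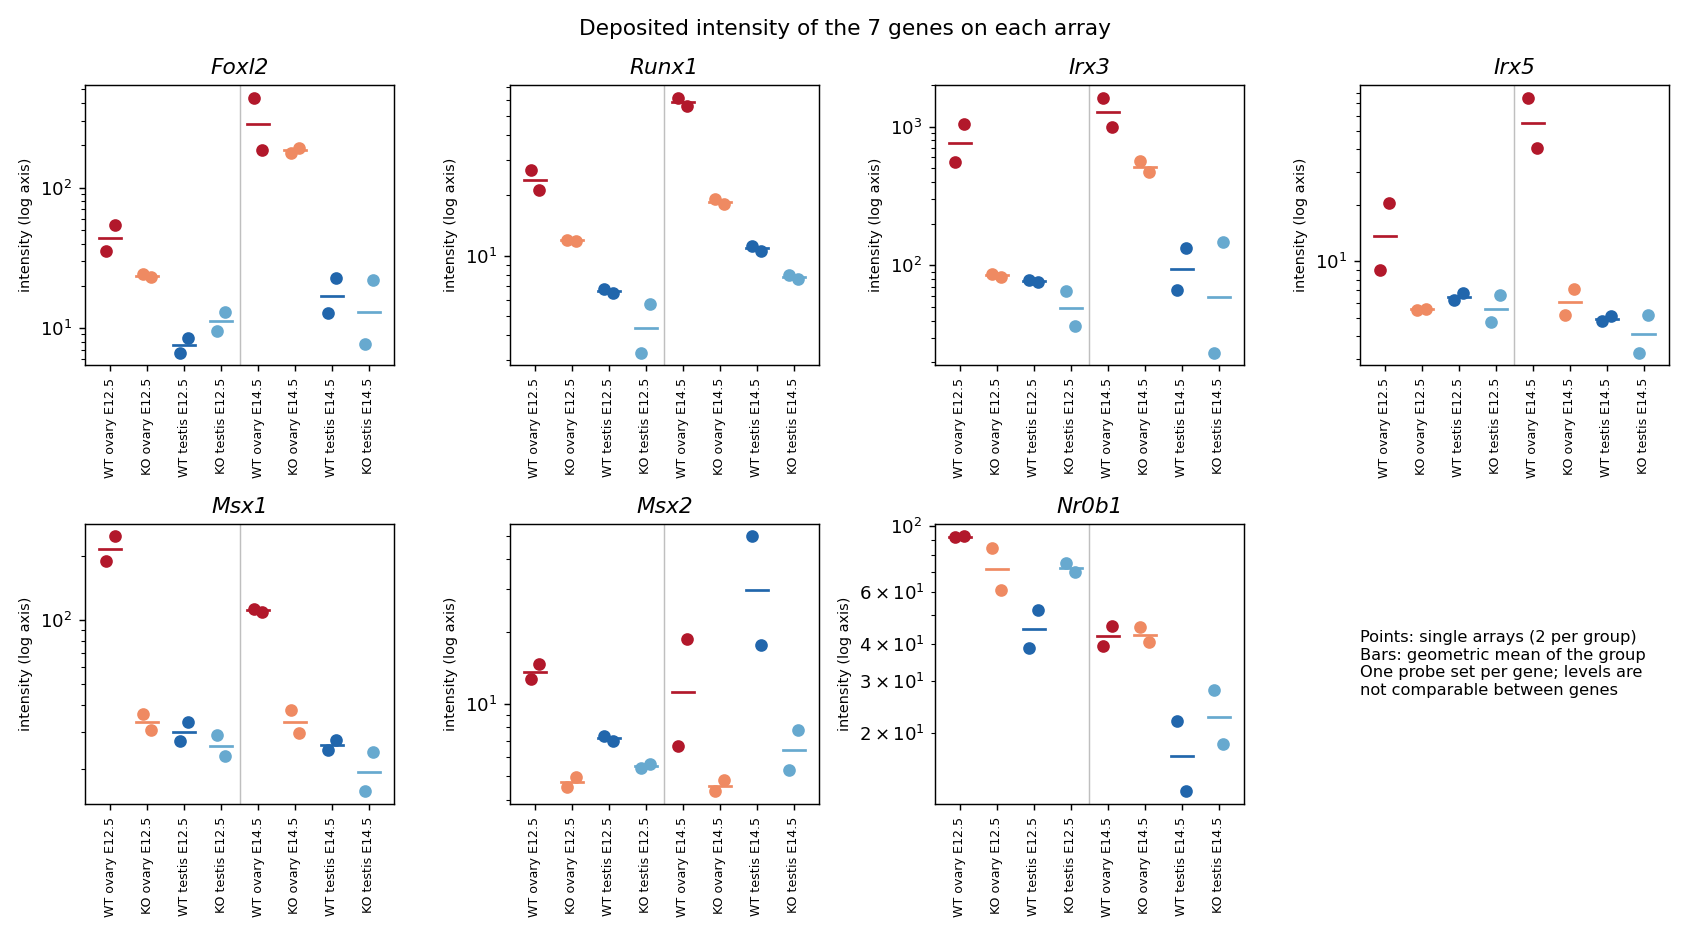
Intensity (log axis) of each of the 7 genes on the 16 arrays, by group, with points for single arrays and bars for the geometric mean of 2 arrays; WT is wild type and KO is Wnt-4 knock-out. Foxl2, Runx1, Irx3, Irx5 and Msx1 had their highest values in wild-type ovary, Msx2 on a wild-type testis E14.5 array at 49.7, and Nr0b1 in wild-type ovary at E12.5.

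In the wild-type gonad the comparison of testis with ovary shows which of the 7 genes were ovary-biased in these data. The 7 were chosen with earlier results of these data known. Counts and medians set against all genes, here and below, therefore describe the list and are no independent test of it. At E12.5, 4 of 7 were lower in the testis and none higher, where 0.608% of all genes were called in either direction and 0.454% were lower. The median difference of the 7 was -1.39, against -0.11 over all genes. At E14.5, 6 of 7 were lower and none higher, where 3.83% of all genes were called and 1.57% were lower, with a median of -2.08 against -0.02. Without Irx5 these counts were 4 of 6 and 5 of 6, and the medians -1.72 and -2.01. The member that departed was Msx2, which was not lower in the E14.5 testis.

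Foxl2 was 35.4 and 54.6 in the wild-type ovary at E12.5 and 6.67 and 8.53 in the testis. The E14.5 arrays read 437 and 184 in the ovary and 12.7 and 22.7 in the testis. Ovary and testis arrays did not overlap at either stage. The gap was 2.05 ± 0.42 (log2, SE) lower in testis at E12.5, or 4.15-fold (at least 3.32-fold; limma, adjusted p = 0.0485), and 13.7-fold at E14.5 (adjusted p = 0.000395). The E12.5 call was lost without wild-type ovary replicate 2 (adjusted p = 0.439), without wild-type testis replicate 1 (0.427) or 2 (0.385), and with the 2 near-identical testis arrays averaged to 1 (0.422), and in all in 16 of 20 alternatives.

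Runx1 was 26.9 and 21.2 in the wild-type ovary and 6.78 and 6.47 in the testis at E12.5, then 61.8 and 56.1 against 11.1 and 10.6 at E14.5. These values are from the brightest of its 4 probe sets above the filter, on which the groups were apart and replicates close. On it Runx1 was 2.63-fold lower in the E12.5 testis (at least 1.93-fold; limma, adjusted p = 0.00232) and 4.23-fold lower in the E14.5 testis (adjusted p = 6.41e-05). Without wild-type testis E12.5 replicate 1 or 2 the E12.5 adjusted p was 0.0544 and 0.0631. The other probe sets did not pass when fitted on their own: 1422865_at, 1440878_at and 1452530_a_at differed by -0.45, -1.30 and -0.21 at E12.5 and by -0.77, -1.05 and 0.01 at E14.5 (adjusted p from 0.233 to 0.993). For 1422865_at the E12.5 intensities were 20.7 and 7.14 in ovary and 8.49 and 7.87 in testis, those of E14.5 were 10.01 and 50.7 in ovary and 17.4 and 8.27 in testis, and the sexes overlapped at both stages. With the mean of the probe sets the difference was -0.84 at E12.5, not called (adjusted p = 0.050), and -0.97 at E14.5 (adjusted p = 0.00611).

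Irx3 had the widest gap at E12.5, at 553.5 and 1053 in the ovary against 78.0 and 75.5 in the testis. The E14.5 values were 1618 and 998 against 66.6 and 134. Even the lower ovary array was well above both testis arrays at each stage. The testis was 9.51-fold lower at E12.5 (limma, adjusted p = 0.0365) and 12.9-fold lower at E14.5 (adjusted p = 0.00488). The E12.5 call was lost without wild-type ovary replicate 2 (0.343) or either testis array (0.291 and 0.352), and the E14.5 call without wild-type ovary replicate 1 (0.0801) or wild-type testis replicate 1 (0.0579). In all, the E12.5 call was lost in 11 of 20 alternatives.

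Irx5, the neighbour of Irx3 on chromosome 8, was dim at E12.5. It was 8.99 and 20.6 in the wild-type ovary and 6.20 and 6.75 in the testis, a log2 difference of -0.77 that was not called (CI -1.39 to -0.15, limma, adjusted p = 0.228). By E14.5 the ovary arrays read 75.1 and 40.5 and the testis arrays 4.79 and 5.11. The testis was 6.63-fold lower on the tested scale, with a bound of at least 4.29-fold (limma, adjusted p = 0.000284). Irx5 exceeded the array median on 3 of 16 arrays only, so its values outside the wild-type ovary were below the array median.

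Msx1 was 189 and 246 in the wild-type ovary at E12.5 and 27.0 and 33.5 in the testis, 6.44-fold lower (limma, adjusted p = 0.000361). At the later stage it was 113 and 109 in the ovary and 24.6 and 27.6 in the testis, 3.83-fold lower (adjusted p = 0.00125). Both calls held with each array left out. Its partner Msx2 was 12.7 and 14.7 in the ovary and 7.40 and 7.05 in the testis at E12.5, a difference of -0.65 that was not called (CI -1.43 to 0.13, adjusted p = 0.364). At E14.5 Msx2 was 6.67 and 18.7 in the ovary and 49.7 and 17.7 in the testis, so the groups overlapped and the difference of 1.13 was not called (CI 0.35 to 1.91, adjusted p = 0.115).

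Nr0b1, which is expressed in gonads of both sexes and in the adrenal gland, was 91.9 and 92.2 in the wild-type ovary and 38.7 and 52.2 in the testis at E12.5, a difference of -0.97 that was not called (CI -1.58 to -0.36, limma, adjusted p = 0.155). The E14.5 values were 39.5 and 46.0 against 22.0 and 12.7, 2.24-fold lower in the testis (adjusted p = 0.0369). That call was lost whichever of the 4 arrays was left out, with adjusted p between 0.0507 and 0.319, and in all in 10 of 20 alternatives.

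**Figure D2:**
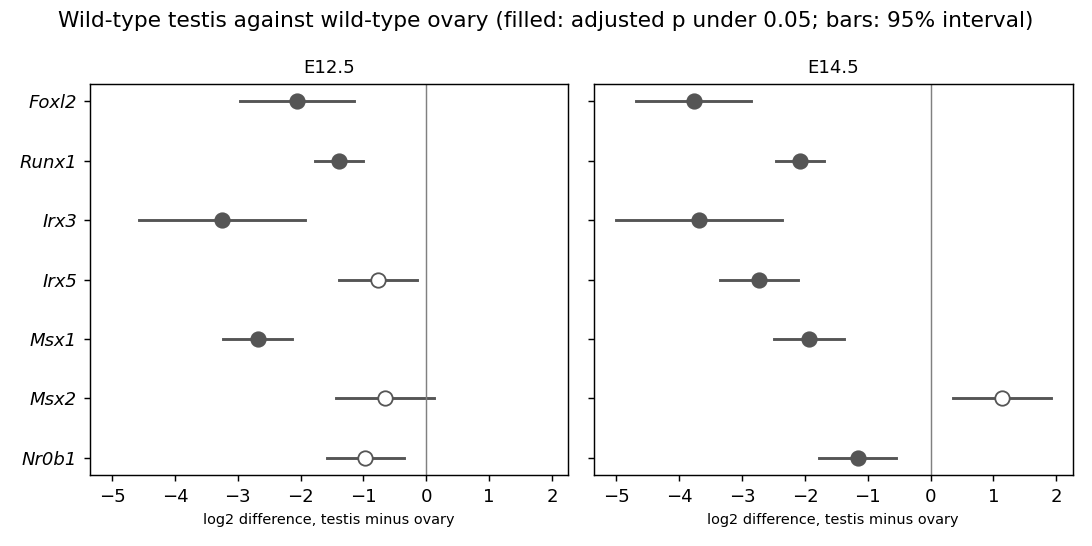
Log2 difference of wild-type testis minus wild-type ovary for each gene at E12.5 and E14.5, with 95% intervals from the limma fit and filled points for an adjusted p under 0.05. Points left of 0 are lower in testis: 4 genes are filled at E12.5 and 6 at E14.5, with Msx2 at 1.13 on the other side at E14.5.

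The central comparison asks what loss of Wnt4 did to these genes in the ovary. At E12.5 all 7 had lower means in the knock-out, and 1 of 7, Msx1, passed the test (limma), where 0.276% of all genes were called and 0.0973% were lower. At an unadjusted limma p below 0.05 there were 5 of 7, against 7.99% of all genes. Irx5 and Msx2 are among them, and their lower knock-out level is partly set by the filter. The median change of the 7 was -0.91 (also -0.91 without Irx5) and that of all genes 0.03. At E14.5, 3 of 7 were lower and none higher, namely Irx5, Runx1 and Msx1 (2 of 6 without Irx5), where 0.543% of all genes were called and 0.341% were lower. At an unadjusted limma p below 0.05 there were 4 of 7, again with Irx5 and Msx2 among them, against 5.72% of all genes. The median at E14.5 was -1.30 (-1.08 without Irx5), against -0.02 over all genes. Foxl2, Irx3, Msx2 and Nr0b1 were not called at either stage.

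Msx1 was 36.3 and 30.7 in the E12.5 knock-out ovary, against 189 and 246 in the wild type. Both knock-out arrays were in the range of the testis arrays or just above it. The fall was 2.55 ± 0.26 (log2, SE), or 5.87-fold (limma, adjusted p = 0.00099), and it stayed past the threshold with each of the 4 arrays left out, at 5.15-fold to 6.69-fold. At E14.5 Msx1 was 37.8 and 29.6 in the knock-out against 113 and 109, 3.07-fold lower (adjusted p = 0.0114). This second call was lost without wild-type replicate 1 (adjusted p = 0.0835), knock-out replicate 1 (0.0531) or knock-out replicate 2 (0.159).

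Msx2 was the other MSX gene measured and was dim. It was 4.52 and 4.95 in the knock-out ovary at E12.5 against 12.7 and 14.7, a change of -1.01 (CI -1.79 to -0.23, limma, adjusted p = 0.440). The E14.5 knock-out arrays read 4.33 and 4.84 against 6.67 and 18.7, a change of -0.86 (CI -1.64 to -0.08, adjusted p = 0.747). The knock-out arrays lay below the wild-type arrays at both stages, and neither difference was called.

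Irx3 was 87.2 and 82.1 in the E12.5 knock-out ovary against 553.5 and 1053. The knock-out arrays were close to each other and to the testis arrays, but the 2 wild-type arrays were wide apart. The 8.66-fold difference, -3.11 ± 0.61 (log2, SE; CI -4.43 to -1.79), did not pass the threshold (limma, adjusted p = 0.0576). It passed in 4 of 20 alternatives, among them a pseudocount of 16 (0.0446) and the 3′/5′ ratio as a covariate (0.0254). At E14.5 Irx3 was 566 and 469 in the knock-out against 1618 and 998, a change of -1.30 (CI -2.62 to 0.02, adjusted p = 0.897). The knock-out effect at E14.5 minus that at E12.5 was 1.82 for Irx3 (CI -0.05 to 3.69, adjusted p = 0.967), so a weaker effect at the later stage was not shown.

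Irx5 had the opposite order of stages in its values. In the knock-out ovary it was 5.48 and 5.59 at E12.5 against 8.99 and 20.6, a change of -0.91 that was not called (CI -1.53 to -0.28, limma, adjusted p = 0.334). At E14.5 it was 5.20 and 7.08 against 75.1 and 40.5, 5.88-fold lower on the tested scale, with a bound of at least 4.3-fold (limma, adjusted p = 0.00244). Both knock-out arrays lay below the array median. The E14.5 fall held with each array left out, at log2 changes of -2.97 to -2.14. The difference between the stages was -1.65 (CI -2.53 to -0.77, adjusted p = 0.560). Fto, the protein-coding neighbour of Irx3 on the other side, changed by -0.01 and -0.24 in the knock-out ovary at the 2 stages (adjusted p = 0.997 and 1.00).

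Runx1 was 12.02 and 11.84 in the E12.5 knock-out ovary against 26.9 and 21.2, a change of -0.81 (CI -1.19 to -0.43, limma, adjusted p = 0.0802). On the later arrays it was 19.1 and 18.1 against 61.8 and 56.1, 2.78-fold lower (adjusted p = 0.00245), and this held with each array left out. No array overlapped between the genotypes at either stage. Runx1 has 4 probe sets above the filter, and they disagreed: when each probe set was fitted on its own at E14.5, 1422864_at changed by -1.48 (adjusted p = 0.00931), whereas 1422865_at, 1440878_at and 1452530_a_at changed by -0.57, -0.57 and -0.12 (adjusted p = 1.00 for each). Probe set 1422865_at was 10.01 and 50.7 in the E14.5 wild-type ovary, so its replicates were further apart than the genotypes. With the mean of the probe sets the E14.5 change was -0.69 and not called (adjusted p = 0.119). Clic6, the protein-coding neighbour of Runx1, which encodes a chloride intracellular channel, also fell at E14.5, by 1.58 (adjusted p = 0.00662, or 0.0592 and 0.0532 without knock-out replicate 1 or 2), while Setd4 on the other side changed by 0.13 (adjusted p = 1.00).

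Foxl2 was 24.2 and 23.0 in the E12.5 knock-out ovary against 35.4 and 54.6, a change of -0.80 (CI -1.71 to 0.11, limma, adjusted p = 0.678). The E14.5 knock-out arrays read 176 and 193 against 437 and 184, and the groups overlapped. The E14.5 change of -0.62 had a CI of -1.53 to 0.30 (adjusted p = 1.00), and it rested on 1 array: without wild-type replicate 1 it was -0.00, and without wild-type replicate 2, the array with 19.5% opposite-sex RNA, it was -1.23 (adjusted p = 0.30). These intervals leave room for a fall of more than 2-fold and for none.

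Nr0b1 was 84.5 and 60.9 in the E12.5 knock-out ovary against 91.9 and 92.2, a change of -0.34 (CI -0.95 to 0.27, limma, adjusted p = 0.795). At E14.5 it was 45.7 and 40.5 against 39.5 and 46.0, a change of 0.01 (CI -0.60 to 0.62, adjusted p = 1.00), with overlapping arrays. The summed intensity of 4 adrenal cortex genes was 157 and 355 in the E12.5 knock-out ovary against 72.2 and 100.3 in the wild type, and its part in the Nr0b1 values was not tested.

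**Figure D3:**
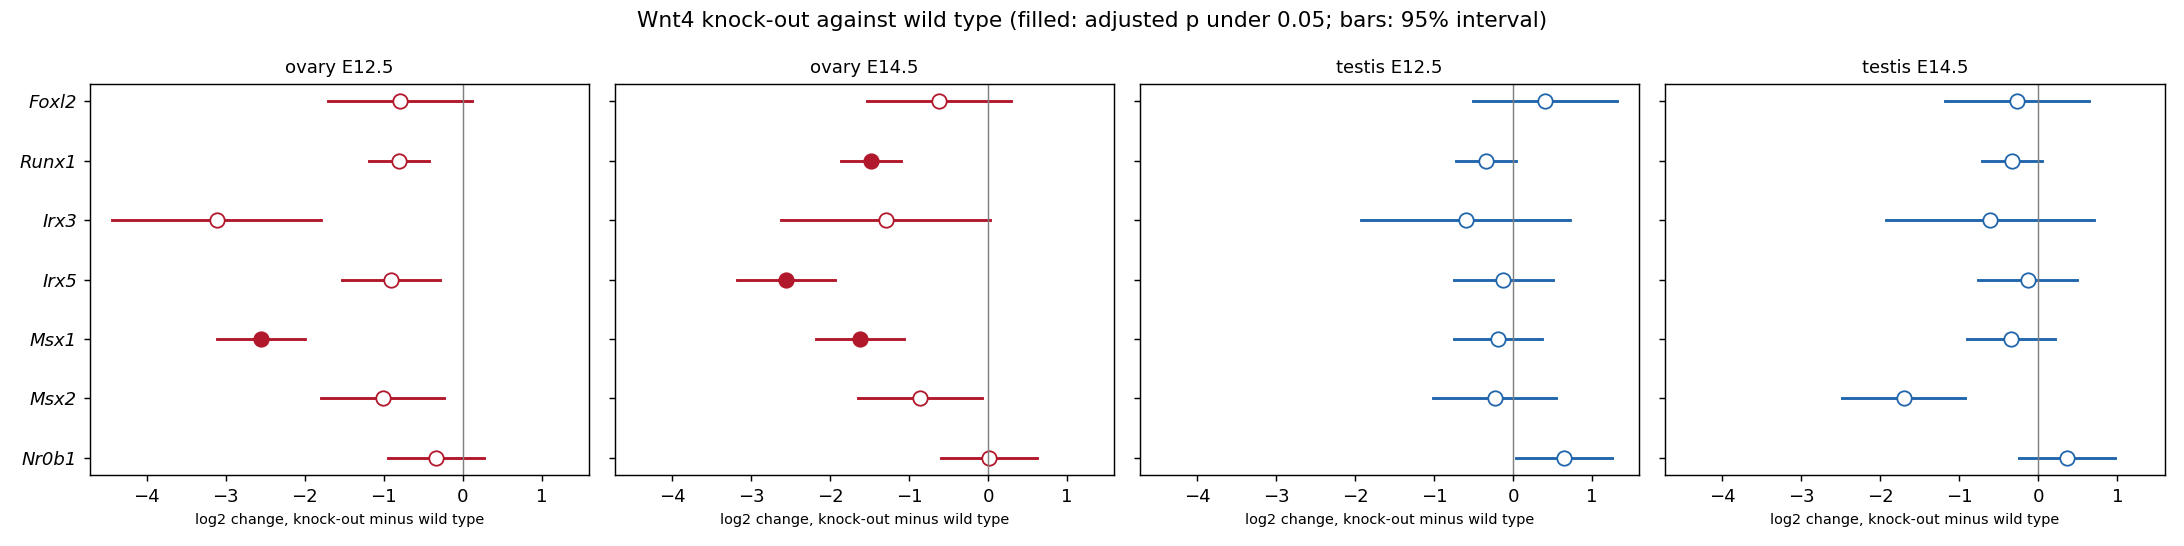
Log2 change of Wnt-4 knock-out minus wild type for each gene in ovary and testis at both stages, with 95% intervals from the limma fit and filled points for an adjusted p under 0.05. Filled points are Msx1 in the E12.5 ovary and Runx1, Irx5 and Msx1 in the E14.5 ovary, with none in the testis.

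In the testis none of the 7 was called at either stage (limma), where 0.0243% of all genes were called at E12.5 and 0.00811% at E14.5, and 1 of the 7 had an unadjusted p below 0.05 at each stage, against 11% and 1.48% of all genes. At E12.5 that was Nr0b1, at 74.8 and 70.0 in the knock-out against 38.7 and 52.2, a change of 0.64 (CI 0.03 to 1.25, adjusted p = 0.437). At E14.5 it was Msx2, at 5.29 and 7.80 against 49.7 and 17.7, a change of -1.70 (CI -2.48 to -0.92, adjusted p = 0.685). Neither pair of groups overlapped. Foxl2, Runx1, Irx3, Irx5 and Msx1 were already low in the wild-type testis and changed by -0.61 to 0.40 over the 2 stages.

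The difference of the knock-out effects between testis and ovary was tested directly. At E12.5 it was called for 1 of 7, Msx1, at 2.36 ± 0.36 (log2, SE; limma, adjusted p = 0.0307), where 0.0973% of all genes were called and 0.0243% were on the higher side. This call was lost without wild-type ovary replicate 2 (adjusted p = 0.140), either wild-type testis array (0.241 and 0.171) or either knock-out testis array (0.0665 and 0.123), at values of 2.17 to 2.51. At E14.5 none of the 7 was called and 0% of all genes were, and 3 of the 7 had an unadjusted p below 0.05, against 2.39% of all genes. The largest was that of Irx5, at 2.42 (CI 1.54 to 3.30, adjusted p = 0.139). The change of the knock-out effect from E12.5 to E14.5 was called for none of the 7 in the ovary (0% of all genes) or the testis (0.00811%). At an unadjusted p below 0.05 there were 3 of 7 in the ovary, against 4.5% of all genes, and 1 of 7 in the testis, against 4.52%.

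Another way to place the knock-out ovary is against the wild-type testis of the same stage. At E12.5 none of the 7 was called (limma), where 8.97% of all genes were called. At an unadjusted p below 0.05 there were 3 of 7, against 32.5% of all genes. At E14.5, 4 of 7 were called, where 4.74% of all genes were (1.7% higher and 3.04% lower), with Foxl2 (8.91-fold), Irx3 (5.26-fold) and Nr0b1 (2.26-fold) higher in the knock-out ovary and Msx2 (3.98-fold, at least 2.47-fold) lower. The adjusted p was 0.00107 for Foxl2, 0.0405 for Irx3, 0.0311 for Nr0b1 and 0.0066 for Msx2. The Foxl2 call held with each array left out. The Irx3 call was lost with any of the 4 left out (adjusted p from 0.0732 to 0.233), the Nr0b1 call without either knock-out array or wild-type testis replicate 2 (0.193, 0.120 and 0.305), and the Msx2 call without knock-out replicate 1 (0.0568) or wild-type testis replicate 1 (0.0557). Irx5 and Msx1 did not differ detectably from the E14.5 testis, at 0.17 (CI -0.45 to 0.80) and 0.32 (CI -0.23 to 0.87), nor did Runx1, at 0.61 (CI 0.23 to 0.99, adjusted p = 0.0721). This comparison and the comparison with wild-type ovary share the knock-out arrays.

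On a scale where the mean of wild-type testis is 0% and the mean of wild-type ovary is 100%, the sex-different genes lay at different places. In the E12.5 knock-out ovary Foxl2 was at 62.6% and 59.6%, Runx1 at 42.5% and 41.3%, Irx3 at 5.44% and 2.89%, and Msx1 at 8.96% and 0.95%. At E14.5 Foxl2 was at 81.9% and 85.4% and Irx3 at 68.5% and 61.2%. Runx1 was at 30.7% and 27.6% then, Msx1 at 24.6% and 8.30%, and Irx5 at 1.46% and 11.3%. Nr0b1, whose E14.5 gap was the smallest of these, was at 108% and 94.2%. Foxl2 and Nr0b1 were thus nearest to the wild-type ovary at E14.5 and Irx5 and Msx1 nearest to the testis, as a description of 2 arrays each. The wild-type ends include arrays of high opposite-sex RNA: ovary replicate 1 at E12.5, and ovary and testis replicate 2 at E14.5. Foxl2 read 437 and 184 on the 2 wild-type ovary arrays at E14.5, so its place depends on which of them sets the end.

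**Figure D4:**
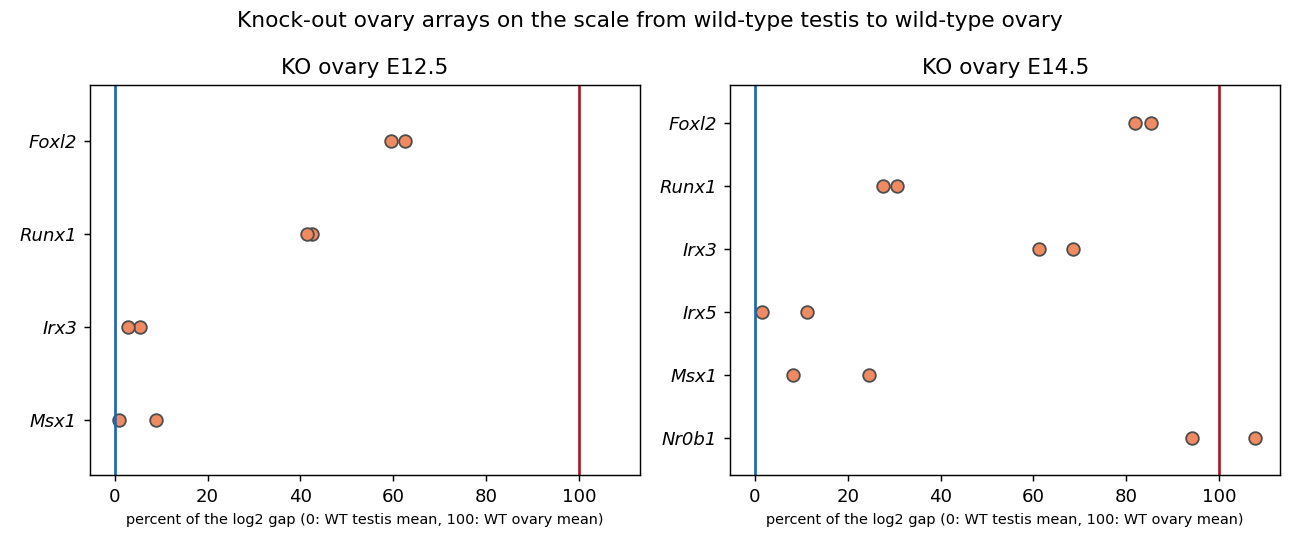
Each of the 2 knock-out ovary arrays per stage, for the genes that differed between wild-type testis and ovary at that stage, on a scale from the wild-type testis mean (0%, blue line) to the wild-type ovary mean (100%, red line) of log2(intensity + 4). Irx3 is at 2.89% and 5.44% at E12.5 and at 61.2% and 68.5% at E14.5, whereas Msx1 is at or below 24.6% at both stages.

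Between E12.5 and E14.5 the members moved in different directions. In the wild-type ovary 3 of 7 rose and none fell (limma), where 4.29% of all genes were called and 2.47% rose. Foxl2 rose 6.0-fold (adjusted p = 0.00335), Irx5 3.32-fold (0.00377) and Runx1 2.25-fold (0.00183), and each call held with any array left out. For Runx1 this too rests on 1 probe set: 1422865_at, 1440878_at and 1452530_a_at changed by 0.74, -0.22 and -0.05 (adjusted p from 0.596 to 0.928), and with the mean of the probe sets the rise was 0.41 and not called (0.199). Without Irx5 the count was 2 of 6. Msx1 and Nr0b1 had lower values at E14.5, by -0.93 (CI -1.49 to -0.38, adjusted p = 0.0602) and -1.04 (CI -1.65 to -0.43, adjusted p = 0.0579), and neither was called. Irx3 changed by 0.73 (CI -0.59 to 2.05) and Msx2 by -0.18 (CI -0.96 to 0.60).

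In the knock-out ovary 2 of 7 rose and none fell, where 13.8% of all genes were called and 5.34% rose. Foxl2 rose 6.82-fold (limma, adjusted p = 0.00112), from 24.2 and 23.0 to 176 and 193. Irx3 rose 5.86-fold (adjusted p = 0.0179), a call that was lost without knock-out ovary E12.5 replicate 1 (0.102), E14.5 replicate 1 (0.112) or E14.5 replicate 2 (0.0751). Irx5 and Runx1, which rose in the wild-type ovary, changed here by 0.08 (CI -0.54 to 0.71) and 0.51 (CI 0.13 to 0.89, adjusted p = 0.0717). The direct test of the difference between genotypes is the one given above for the change of the knock-out effect with stage, and it called none of them.

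In the wild-type testis 2 of 7 were called, where 10.5% of all genes were, 6.67% higher and 3.82% lower. Msx2 rose 3.04-fold (at least 2.36-fold; limma, adjusted p = 0.014), from 7.40 and 7.05 to 49.7 and 17.7, and Nr0b1 fell 2.35-fold (adjusted p = 0.0155). With the 2 near-identical E12.5 arrays averaged, neither was called (0.103 and 0.106). The Msx2 call was also lost without any array but E14.5 replicate 2 (0.0929 to 0.110), and the Nr0b1 call without any but E14.5 replicate 1 (0.0574 to 0.174). In the knock-out testis only Nr0b1 of the 7 was called, where 3.89% of all genes were and 1.22% fell, falling 2.85-fold from 74.8 and 70.0 to 28.1 and 18.4 (adjusted p = 0.0078). That call was lost without E12.5 replicate 1 (0.0757) or E14.5 replicate 2 (0.102). Nr0b1 therefore had lower means at E14.5 than at E12.5 in all 4 kinds of gonad, and the decrease was called in both testis groups.

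The change of the testis-ovary difference with stage in the wild type was called for none of the 7, where 0.162% of all genes were called. At an unadjusted p below 0.05 there were 4 of 7, against 18.1% of all genes. The values furthest from 0 were those of Irx5, at -1.96 (CI -2.84 to -1.08, limma, adjusted p = 0.0700), Msx2, at 1.78 (adjusted p = 0.132), and Foxl2, at -1.72 (adjusted p = 0.182).

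**Figure D5:**
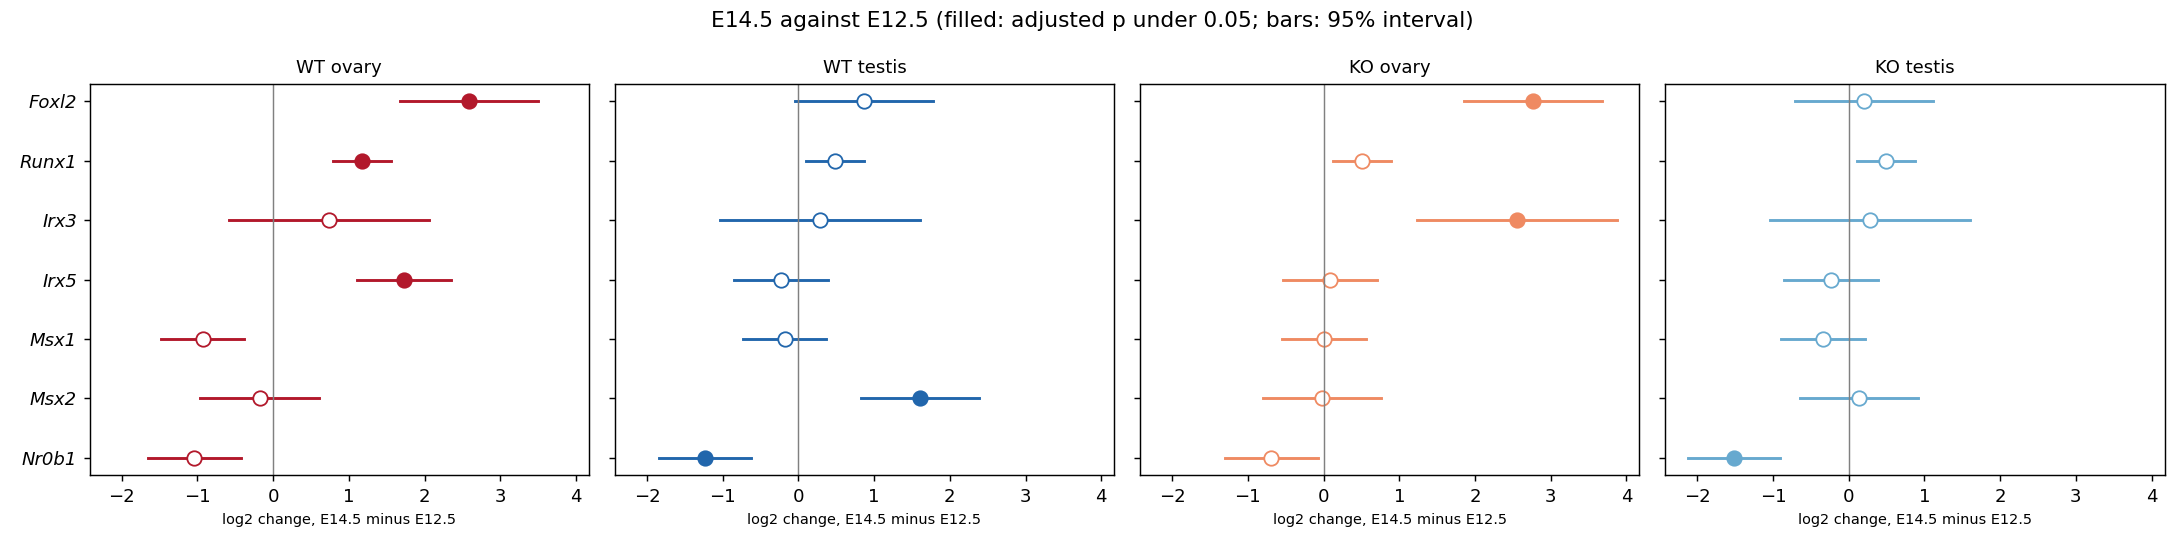
Log2 change from E12.5 to E14.5 for each gene in the 4 kinds of gonad, with 95% intervals from the limma fit and filled points for an adjusted p under 0.05. Foxl2 rises in wild-type ovary (2.59) and knock-out ovary (2.77), whereas Irx5 is at 1.73 in wild-type and 0.08 in knock-out ovary.

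Across the 16 arrays the profiles of the members were compared pair by pair. Pearson's r of log2 values was 0.885 between Foxl2 and Irx3, 0.876 between Runx1 and Irx3, 0.868 between Foxl2 and Runx1, and 0.846 between Runx1 and Irx5. Msx1 was nearest to Irx3, at 0.816, and was at 0.531 with Foxl2. Msx2 had an r between -0.35 and 0.25 with the other 6, and Nr0b1 exceeded 0.18 only with Msx1, at 0.496. These values describe 8 groups on shared arrays, with the same sex, stage and opposite-sex RNA for every gene.

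The genes with the most similar profile to each member were sought among 699 genes whose group means spanned at least 2 log2 units. For Foxl2 they were Foxl2os (r = 0.961), the opposite-strand transcript beside it, Adamdec1 (0.955) and Inca1 (0.927). For Irx3 the nearest was Fst (0.951), which encodes the activin antagonist follistatin, then Sbspon (0.913) and Tnfrsf19 (0.888). Irx5 was nearest to Lypd6b (0.918), Clic6 (0.908) and Insyn2b (0.904), and Runx1 to Prcd (0.901), Clic6 (0.899) and Lzts1 (0.883). Clic6, which lies next to Runx1, was on the list of both genes. Msx1 was nearest to D630039A03Rik (0.942), Phlda2 (0.901) and Insyn2b (0.894). Nr0b1 was nearest to Rhox9 (0.937) and Rhox6 (0.926), which are X-linked homeobox genes, and to Zbtb7c (0.847). Msx2 had no near match, with Pnoc at 0.779, Galnt5 at 0.765 and Osr2 at 0.670.

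Other genes of the ovarian WNT pathway and supporting cells behaved as follows. This list and those below were also chosen with earlier results of these data known. Of 12 such genes, all tested and Wnt4 among them, 2 fell and none rose in the E12.5 knock-out ovary (limma), where 0.0973% of all genes were lower. Their median was -1.08 against 0.03 over all genes. At E14.5, 3 fell and none rose, where 0.341% of all genes were lower, with a median of -1.42 against -0.02. Fst was 759.8 and 688 in the wild type and 81.3 and 55.5 in the knock-out at E12.5, 10.2-fold lower (adjusted p = 0.0284). That call was lost without knock-out replicate 1 (0.0725), wild-type replicate 1 (0.0922) or wild-type replicate 2 (0.0769). Notum, a secreted inhibitor of WNT proteins, was 57.8 and 134 against 11.6 and 9.75 (adjusted p = 0.0339), and at E14.5 147 and 146 against 10.5 and 14.4, 9.22-fold lower (adjusted p = 0.00666). The E12.5 call of Notum was lost without knock-out replicate 1 (0.163) or wild-type replicate 2 (0.103), and its E14.5 call without knock-out replicate 1 (0.0749) or 2 (0.0535). Lgr5, a receptor for R-spondins, was 140 and 89.8 against 18.6 and 16.1 at E14.5, 5.46-fold lower (adjusted p = 0.00244), and this held with each array left out. The other E14.5 call was Wnt4 itself. Rspo1 changed by 0.78 at E14.5 and was not called (adjusted p = 0.639).

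The relatives and upstream signals of the members did not pass the test in the knock-out. Of 12 relatives and partners 5 were tested, with Irx1, Irx2, Irx4, Irx6, Runx3 and Msx3 below the filter, and none was called in any of the 4 comparisons of knock-out with wild type (limma), with 0 to 2 at an unadjusted p below 0.05. Of 18 genes of the BMP pathway, which acts upstream of MSX genes in other tissues, 15 were tested and none was called in those 4 comparisons, with 1 to 5 at an unadjusted p below 0.05. Over all genes that share was 7.99% and 5.72% in the ovary and 11% and 1.48% in the testis, at E12.5 and E14.5. The upper end for the BMP genes, 5 of 15, was above each of these shares, so a change of this pathway is not excluded. Nr5a1, which encodes the factor whose activity NR0B1 represses, changed by 0.75 and -0.07 in the knock-out ovary (limma, adjusted p = 0.801 and 1.00). Its transcript does not measure that repression.

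Markers of other cells were read beside the ovarian comparison. None of 12 Sertoli cell genes was called between knock-out and wild-type ovary at either stage (1 and 2 at an unadjusted p below 0.05), and their summed intensity was 948 to 2202 in knock-out against 1054 to 1331 in wild-type ovary at E12.5 and 801 to 832 against 543 to 3094 at E14.5. On testis arrays it ran from 6221 to 9903. Of 6 tested mesonephros and genital duct genes, 2 fell in the E14.5 knock-out ovary, where 0.341% of all genes were lower. These were Calb1 and Pax8, by 3.57 and 1.05 on the log2 scale (limma, adjusted p = 0.00245 and 0.00894). The Pax8 call was lost without knock-out replicate 1 or 2 (0.0992 and 0.054). The sum of the list was 348 to 607 against 1018 to 1025. At E12.5 that sum was 944 to 1155 in knock-out and 821 to 1379 in wild type. The part of these cells in the fall of Irx5, Runx1 and Msx1 at E14.5 was not tested. None of 10 germ cell genes, 10 meiosis genes, 7 endothelial genes, 7 stromal genes, 9 bipotential gonad factors, 5 erythroid genes, 4 fetal Leydig cell genes and 4 adrenal genes tested was called between knock-out and wild-type ovary at either stage. At an unadjusted p below 0.05 the counts per list were 0 to 4, with all 4 adrenal genes at E12.5 (median 1.15) and 2 of the 4 Leydig cell genes (median 2.25) at that stage.

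Leaving out the 5 arrays with more than 10% opposite-sex RNA left 1 array in each ovary group at E12.5. The spread was thus taken from the 3 groups that kept 2 arrays, among them the near-identical wild-type testis arrays. The E12.5 ovary arrays left, wild-type replicate 2 and knock-out replicate 1, had the highest 3′/5′ ratios of the ovary arrays, 1.76 and 2.27. Leaving out arrays of a high 3′/5′ ratio instead kept the other array of each of these groups, with Msx1 at -2.47 (log2). Without the arrays of high opposite-sex RNA, the E12.5 knock-out ovary was 11.6-fold lower for Irx3 and 6.21-fold lower for Msx1. It was 2.60-fold lower for Irx5 and 2.19-fold lower for Msx2. For these 2 genes the knock-out array lay below its array median, no bound is given, and the lower level is partly set by the filter. The same fit raised the calls among all genes from 34 to 103. At E14.5 it called Irx5, Runx1 and Msx1 again, at 7.84-fold, 2.91-fold and 3.12-fold lower, with Irx3 at 3.12-fold (adjusted p = 0.0521) and Foxl2 at 2.35-fold (0.0545), while the calls among all genes rose from 67 to 270. In wild-type testis against ovary at E12.5 the calls among all genes rose steeply in this fit, so its count of members is not read. At E14.5 the comparison kept 1 array in each group, with Msx2 higher in the testis by 2.33 (log2). In the E14.5 testis Msx2 was 5.78-fold lower in the knock-out, from 1 array a group, at 5.29 against 49.7. That knock-out array lay below its array median, so the fold is without a bound and partly set by the filter. Each of these calls compares 1 or 2 arrays a group and assumes that a lone array varies like those of the other groups.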

How the data were processed

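The deposited values are linear intensities per probe set, which the authors made with MAS5 per the submitters' processing notes; no source used here gives its version, scaling or filters. All 16 arrays had mean intensities of 272 to 288 and medians of 9.32 to 10.5, and the deposited scale was kept. Probe sets above the array median on at least 2 arrays were kept (25596 of 45101, 64 of them controls left out), and the one with the highest mean stood for each gene. Of the probe sets 34958 have 1 gene symbol, 932 several and 9211 none; symbols were updated through Entrez identifiers for 34754. Values were tested as log2(intensity + 4) with limma 3.58.1 in R 4.3.3 (a mean per group, moderated with an intensity trend, Benjamini-Hochberg over 12332 genes, threshold 0.05). With 2 arrays per group the fit has 8 residual degrees of freedom, and the number of arrays limits the precision. Each of the 17 comparisons was repeated under the alternatives of the closing section.

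On simulated data for the E14.5 ovary comparison over 12332 genes the fit recovered 44 of 100 genes changed 2-fold and 95 of 100 changed 4-fold, and called 7 unchanged ones. Named genes are the 7 members, Wnt4, the 3 most similar genes of each member, and up to 4 called genes per list; the neighbouring genes, Rspo1, Nr5a1 and the genes below the filter were named after their values were seen. The members and lists were chosen with earlier results of these data known. Replicate numbers did not pair the arrays across all groups: the correlation of deviations exceeded 0.1 in 7 of 28 pairs of groups. It ranged from -0.66, between wild-type and knock-out ovary at E12.5, to 0.582, between wild-type and knock-out testis at E14.5. Arrays of these comparisons thus varied together, with crossed numbers in the ovary.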

Additional observations from a re-analysis of the deposited data

Results flagged for a closer look

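Msx1 was singled out because the knock-out effect at E12.5 differed between testis and ovary by 2.36 on the log2 scale (limma interaction, adjusted p = 0.0307): ovary arrays fell from 189 and 246 to 36.3 and 30.7, and testis arrays were 27.0 and 33.5 in wild type and 29.0 and 23.0 in knock-out.

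For Foxl2 and Nr0b1 every knock-out array at E12.5 lay below the wild-type arrays in the ovary and above them in the testis. The effects differed by 1.20 for Foxl2 (limma interaction, adjusted p = 0.866) and by 0.98 for Nr0b1 (adjusted p = 0.742), and neither difference was called. How many of all genes were split in this way was not counted, so the split only describes 2 arrays a group.

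For Irx5 both wild-type ovary arrays were higher at E14.5 than at E12.5 (75.1 and 40.5 against 8.99 and 20.6) and both wild-type testis arrays lower (4.79 and 5.11 against 6.20 and 6.75). All 4 testis arrays lay below the array median, and their change of -0.23 was not called (limma, adjusted p = 0.67). The difference between testis and ovary changed by -1.96 with stage (limma interaction, adjusted p = 0.0700), which was not called.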

How the results depend on the processing

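The counts of members in this section are given without the share of all genes called in each setting. Without arrays of high opposite-sex RNA the calls among all genes rose as well. The counts are therefore not read as results about the members. No called change of a member reversed its direction in any alternative, and 435 of 543 repeats of a called change stayed past the threshold. Of the 108 that did not, 42 left out 1 array, 18 fitted a comparison on its own arrays alone, which leaves 2 or 4 residual degrees of freedom, 8 averaged the 2 near-identical wild-type testis E12.5 arrays and 6 fitted probe sets one by one. In the E12.5 knock-out ovary 1 of 7 members was called; this was 2 with a pseudocount of 16, 2 with the 3′/5′ ratio as a covariate, 0 with its own arrays alone, 4 without arrays of more than 10% opposite-sex RNA and 3 with crossed replicate numbers as a block. The 3 members of the E14.5 knock-out ovary became 0 with its own arrays alone. For the E14.5 testis the fit without arrays of high opposite-sex RNA left 1 array in each group, where Msx2 was lower in the knock-out.

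For wild-type testis against ovary at E12.5 the count of 4 was 2 with either covariate, without a variance trend, or without arrays of a high 3′/5′ ratio, 1 with the mean of probe sets or the averaged testis arrays, 0 with its own arrays alone, and 7 without arrays of high opposite-sex RNA; at E14.5 6 became 0 with its own arrays alone. For stage, the 3 of the wild-type ovary became 5 with pseudocount 16, without a trend or without arrays of high opposite-sex RNA, and 0 with its own arrays alone. The 2 of the wild-type testis became 4 with array weights or its own arrays alone, 1 with a filter of at least 8 arrays (which removes Irx5 and Msx2) or without arrays of high opposite-sex RNA, and 0 with averaged arrays. Without arrays of a high 3′/5′ ratio the knock-out ovary had 1 in place of 2 and the knock-out testis 0 in place of 1.

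For knock-out ovary against wild-type testis at E12.5 the 0 became 1 with quantile normalization or the sex covariate and 2 with array weights or without arrays of high opposite-sex RNA. The testis-minus-ovary effect at E12.5 went from 1 to 0 with no filter, array weights, the sex covariate, averaged arrays, its own arrays alone or without arrays of a high 3′/5′ ratio, and to 2 without arrays of high opposite-sex RNA; at E14.5 it went from 0 to 1 with array weights and 2 without those arrays. The stage difference of the testis knock-out effect went from 0 to 1 without them, and the wild-type sex-by-stage count from 0 to 1 with array weights and 3 without them. The cause was not tested.

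With each array left out in turn the counts ranged from 0 to 1 for knock-out testis E14.5, 1 to 5 and 4 to 6 for the wild-type sex difference at E12.5 and E14.5, 0 to 1 for wild-type testis stage, 1 to 2 for knock-out ovary stage, 0 to 1 for knock-out testis stage, 1 to 2 for knock-out ovary against wild-type testis at E14.5, 0 to 1 for both testis-minus-ovary effects, and 0 to 3 for the sex-by-stage difference. With a replicate block the 2 knock-out ovary counts were 1 and 3, as without it, and the wild-type sex difference at E12.5 had 3 in place of 4, without Foxl2 (adjusted p = 0.0588). Dim members (Irx5 above the array median on 3 arrays, Msx2 on 5) limit what can be read of their decreases.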
